A study of Mus musculus with 8 samples.

Results

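The genes described here encode the cytosolic translation initiation factors (eIF) and elongation factors (eEF) of mouse CD8+ T cells, together with a few enzymes that modify the elongation factors. They were chosen by symbol: of 41730 rows in the deposited table, 65 carried a symbol beginning with Eif1 to Eif6, Eef1 or Eef2, after leaving out the 4E-binding proteins, the eIF2 kinases, pseudogenes and rows with a number appended. Of these, 57 had at least 10 counts in at least 4 libraries and were kept. RNA was measured in sorted OT-I cells, T cells with a transgenic receptor for an ovalbumin peptide, after culture with dendritic cells derived from bone marrow, which the growth protocol describes as pulsed with the peptide and the sample titles as cross-presenting. All cells of both groups had the OT-I genotype. The 4 control libraries (replicates 1 to 4) came from cultures with the solvent DMSO, and the 4 treated libraries (replicates 5 to 8) from cultures with RGX-104 at 2 µM, a drug that activates the liver X receptors, nuclear receptors for sterols. The sources used here give neither the age of the mice nor the length of the culture. They also do not say if each library had its own culture or animal, so p-values rest on a spread between samples that may be technical.

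Initiation begins when eIF2, bound to GTP and the initiator tRNA, joins the small ribosomal subunit with eIF1, eIF1A, eIF3 and eIF5. The eIF4F complex, made of the cap-binding protein eIF4E, the scaffold eIF4G and the helicase eIF4A, brings the mRNA. After the start codon is found, eIF5B joins the large subunit and eIF2 leaves with GDP, which eIF2B exchanges for GTP. Stress kinases phosphorylate the alpha subunit of eIF2, which turns eIF2 into an inhibitor of eIF2B, lowers general initiation and favours translation of the stress factor ATF4. Elongation then needs eEF1A to bring aminoacyl tRNA and eEF2 to move the ribosome. Activated T cells make large amounts of protein and depend on this machinery.

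The libraries held between 13144704 and 15966972 counts, with control libraries at 14867824 or more and RGX-104 libraries at 14947537 or less. Values are given as counts-per-million (CPM), scaled to a common library size with TMM factors. They stand for reads near transcript ends, and differences in level between genes are not read as differences in amount of transcript. As a check of the treatment, the sterol exporter Abca1 went from 8.13 ± 0.569 to 85.2 ± 5.42 CPM (mean ± SD, n = 4 per group), while Atf4 went from 717 ± 56.6 to 466 ± 25.1 CPM and its target Trib3 from 53.5 ± 5.28 to 7.47 ± 1.08 CPM. Of 10 listed CD8 T cell markers 9 were in the table, and their summed level was 2541 to 2577 CPM in control and 2940 to 3022 CPM in RGX-104. Among the 9, 4 were called higher (Cd8a, Cd8b1, Thy1 and Lat), against 0.888% of all genes tested. Cd3e, Cd3d, Cd3g, Lck and Ptprc were not called, so the sum does not stand for a called change in each marker. Of 10 listed dendritic cell markers 7 were tested and 0 called. The highest besides Ccr7, which T cells express too, were Cd74 (715 counts over the 8 libraries) and Zbtb46 (541 counts), and the lowest were Clec9a and Xcr1 (5 counts each). Without Ccr7 the list summed to 20.7 to 23.3 CPM in control and 14.7 to 18.2 CPM in RGX-104. In bulk RNA, fewer cells of a type and less RNA per cell cannot be told apart. The part of these shifts in the results below was not tested.

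Most translation factor genes were at nearly the same level in both groups. Of the 57, 2 rose, 2 fell and 53 were not called by edgeR at a Benjamini-Hochberg adjusted p under 0.05 over 12162 genes. The genes that rose were Eif2b1 and Eif4g2, and those that fell were Eif2s2 and Eif3c, with changes between 11.3% and 30.3%. The share called among all genes tested was 2.66% in either direction, 0.888% higher and 1.78% lower. Members called made up 7.02% of the 57. Among genes with a control mean of at least 100 CPM, where small changes are easier to detect, 6.48% of 2098 genes were called, against 3 of 42 members (7.14%), so at matched levels the members' share lay near the background. The median log2 fold change was 0.02 over the members and 0.0028 over all genes tested, and 35 members had a positive and 22 a negative value. An unadjusted p under 0.05 was found for 10 members (17.5%), against 13.8% of all genes tested. These were 7 higher (12.3%) and 3 lower (5.26%), against 6.28% higher and 7.52% lower over all genes tested. The shares at an unadjusted p under 0.05 were not matched for level.

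**Figure D1:**
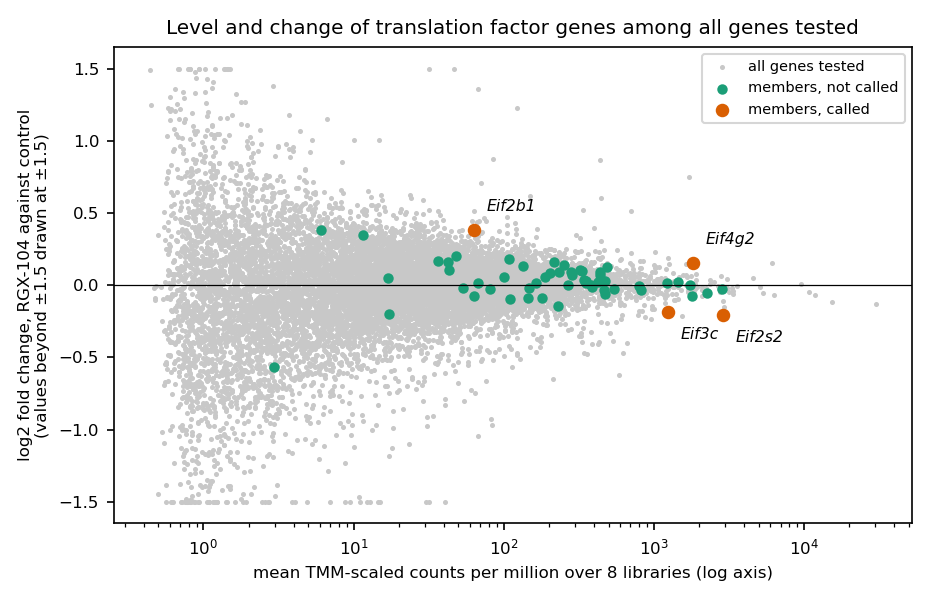
Log2 fold change of each gene tested (vertical axis; values beyond ±1.5 drawn at the limit) against its mean TMM-scaled CPM over 8 libraries (horizontal log axis), with 12162 genes in grey, members not called in green and the 4 members called in orange. Most members lie close to 0, with Eif2b1 and Eif4g2 above and Eif3c and Eif2s2 below the line.

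Measured against the spread between these libraries, which may be technical, most of these changes had narrow bounds. Standard errors of the log2 fold change ran from 0.04 to 0.32 with a median of 0.06. The 95% interval lay wholly inside a 1.25-fold change in either direction for 46 of the 57 members, and for 41 of the 42 with a control mean of at least 100 CPM. The same held for 89.5% of all 2098 genes at that level. The SD of the control libraries was 4.67% of the mean in the median member, from 0.657% (Eif4b) to 20.2% (Eif3j2). The 11 members with wider intervals were Eef1e1, Eif2b1, Eif2d, Eif2s3y, Eif3j2, Eif4e3, Eif5a2, Eef1akmt1, Eef1akmt2, Eef1akmt4 and Eef2k, and all but Eef1e1 had control means under 100 CPM.

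**Figure D2:**
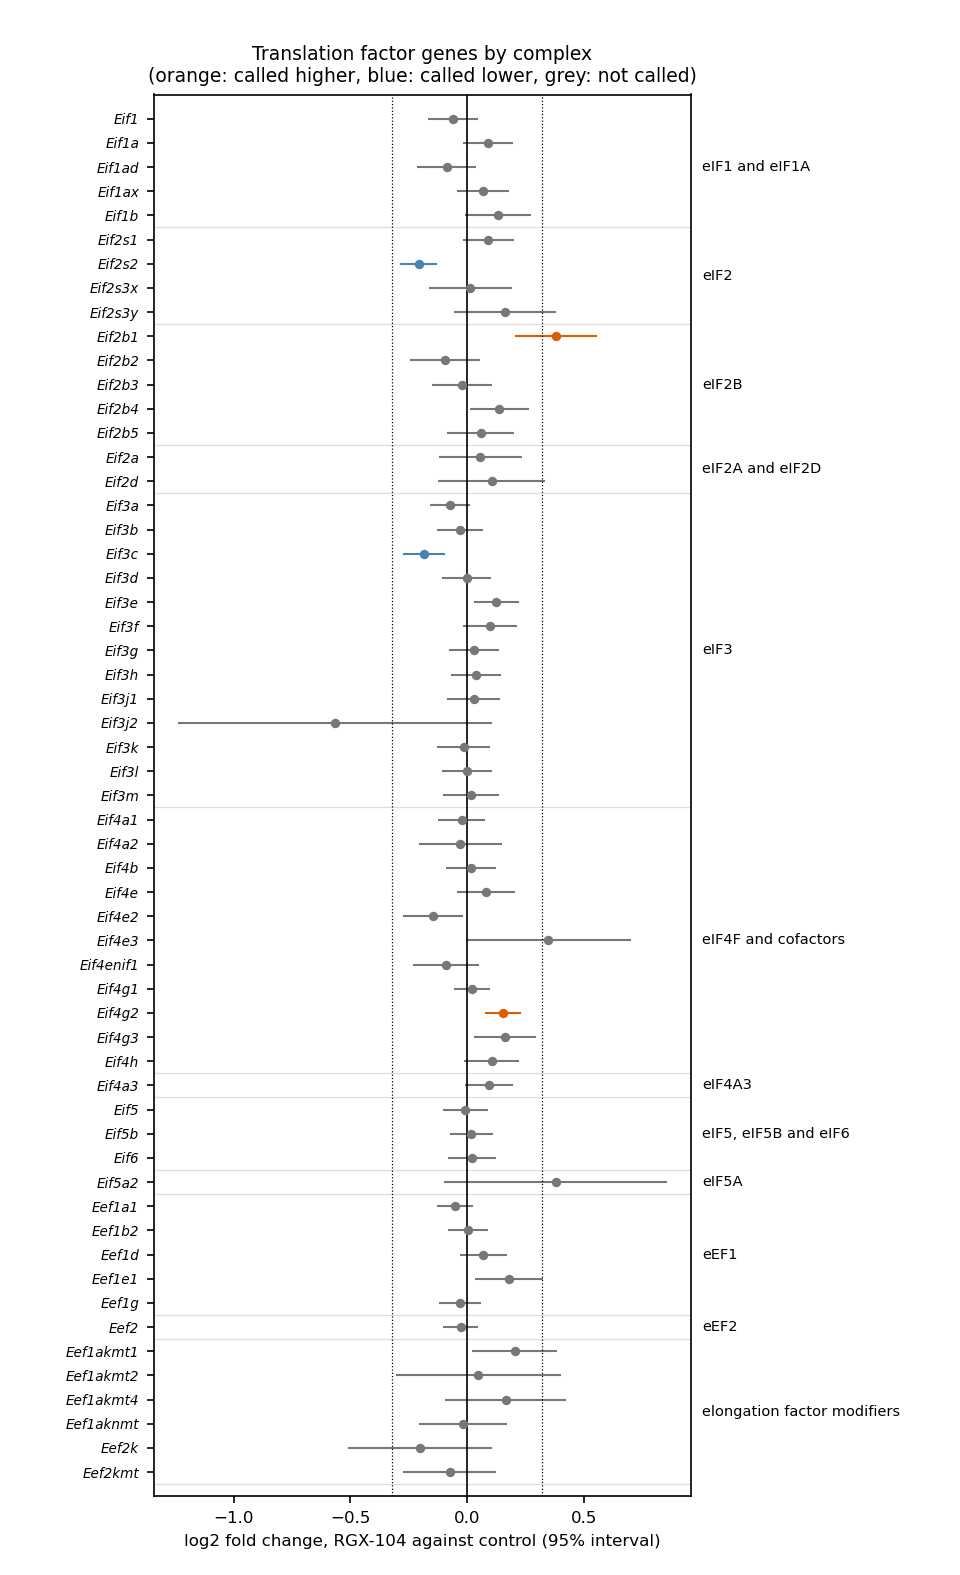
Log2 fold change of RGX-104 against control (horizontal axis) for all 57 members kept, grouped by complex, with 95% intervals as bars and dotted lines at a 1.25-fold change in either direction. Eif2s2 and Eif3c (blue) fell, Eif2b1 and Eif4g2 (orange) rose, and 46 intervals lie between the dotted lines.

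Together the 57 genes took 2.87% to 2.92% of all counts in control and 2.86% to 2.93% in RGX-104 libraries. This share therefore overlapped between the groups. The share taken by the 4 eIF2 genes was 0.338% to 0.357% in control and 0.301% to 0.316% in RGX-104, and most of these reads were of Eif2s2. The 11 tested genes of eIF4F and its cofactors took 0.525% to 0.536% in control and 0.549% to 0.571% in RGX-104. Neither share overlapped between the groups, and each holds a called gene. Of the 4 eIF2 genes 3 had a positive log2 fold change and 1 a negative one, with a median of 0.05. Of the 11 genes of eIF4F and its cofactors 7 were positive and 4 negative, with a median of 0.02. These shares therefore do not stand for a change in each gene. The 13 tested eIF3 genes took 0.666% to 0.685% and 0.653% to 0.681%, with overlap, and the shares of all other complexes and of the modifiers overlapped too.

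Promoter windows of 300 bases, 250 before and 50 after each start, were taken from RefSeq (GRCm38.p6) and matched 46 of the 57 members by symbol. The motifs searched on both strands were TGATGNAA, the core of the element bound by ATF4 and its partners (CARE), CACGTG, the E-box bound by MYC and related factors, TGACG, the core of the cyclic AMP response element, and CCAAT. TGATGNAA was found in 2 of 46 members (4.35%), Eef2k and Eif2s3x, against 4.51% of 27025 genes with a window. CACGTG was found in 13 members (28.3%) against 8.09% of genes, and TGACG in 22 (47.8%) against 23.0%. CCAAT was found in 15 (32.6%) against 41.1%. Base composition was not matched in these shares, genes with several starts were counted once, and TGACG and CACGTG can overlap, as they do in Eef2. The members had passed a filter on counts and the 27025 genes had not, so the shares were not matched for expression either. A match is a description of letters and not a bound site.

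The upstream sequences of the called genes that fell and of Eef2, an uncalled gene with an E-box, show what these windows hold. Each runs 5′ to 3′ on the gene's strand, in RefSeq's GRCm38.p6 sequence, and ends before the outermost annotated start, with capitals for matches to the 4 motifs. The Eif2s2 window (chr2:154892936-154893156, minus strand) holds no match, the Eif3c window (chr7:126566412-126566616, minus strand) holds 1 TGACG, and the Eef2 window (chr10:81176381-81176630, plus strand) holds 1 CACGTG with a TGACG overlapping it on each strand.
Eif2s2: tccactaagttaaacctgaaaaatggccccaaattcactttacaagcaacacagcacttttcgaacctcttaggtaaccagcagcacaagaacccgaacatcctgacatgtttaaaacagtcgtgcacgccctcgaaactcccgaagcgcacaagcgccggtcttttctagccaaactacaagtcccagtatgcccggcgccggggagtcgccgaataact
Eif3c: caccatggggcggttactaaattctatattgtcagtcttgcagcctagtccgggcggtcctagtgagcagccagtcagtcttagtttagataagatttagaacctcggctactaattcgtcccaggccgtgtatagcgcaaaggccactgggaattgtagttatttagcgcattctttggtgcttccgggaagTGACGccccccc
Eef2: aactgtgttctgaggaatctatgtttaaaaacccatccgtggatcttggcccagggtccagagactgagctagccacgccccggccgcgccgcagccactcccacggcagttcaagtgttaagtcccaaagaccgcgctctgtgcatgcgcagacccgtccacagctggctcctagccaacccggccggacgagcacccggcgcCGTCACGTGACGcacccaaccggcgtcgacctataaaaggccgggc

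Eif2s2, whose upstream window held none of the 4 motifs, encodes the beta subunit of eIF2, which contacts eIF5 and eIF2B (GRCm38, chromosome 2, 154871410 to 154892935, minus strand). It was at 3213, 3040, 3170 and 2992 CPM in control replicates 1 to 4 and at 2652, 2571, 2779 and 2752 CPM in RGX-104 replicates 5 to 8. All 4 RGX-104 libraries lay below all 4 control libraries. Eif2s2 fell by 13.4% (log2 fold change -0.21 ± 0.04, ± SE; 95% interval -0.29 to -0.13; edgeR adjusted p = 0.00204). A run of 50 bases in the last 300 bases of Eif2s2 transcripts also occurs in Gm9892, so reads there could come from either gene.

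The other eIF2 subunits were not called. Eif2s1, the alpha subunit that stress kinases phosphorylate, was at 285, 265, 277 and 266 CPM in control and 299, 296, 270 and 299 CPM in RGX-104, with overlapping groups (log2 fold change 0.09, edgeR adjusted p = 0.469). The gamma subunit, which binds GTP and tRNA, is encoded on both sex chromosomes. Eif2s3x was at 67.3 ± 3.16 and 68.0 ± 7.43 CPM (log2 fold change 0.01). Eif2s3y, the Y-linked copy, was at 40.2 ± 4.42 and 45.0 ± 3.96 CPM (log2 fold change 0.16, edgeR adjusted p = 0.524).

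Ratios of reads within a library do not depend on the scaling. Each called gene was therefore compared with the other tested subunits of its complex, or for Eif4g2 with the other eIF4G genes, in pairs chosen once the calls were known. Since the calls chose the numerators, these ratios largely restate the calls and are given as values with no test. Reads of Eif2s2 per read of Eif2s1 numbered 11.3, 11.5, 11.4 and 11.2 in control and 8.88, 8.69, 10.3 and 9.19 in RGX-104. The difference in mean log2 ratio was -0.30. Relative to Eif2s3y it was -0.37, and relative to Eif2s3x, where the ratios overlapped between the groups, it was -0.22.

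eIF2B is a decamer that recharges eIF2 with GTP, with a catalytic part (gamma and epsilon) and a regulatory part (alpha, beta and delta) that senses phosphorylated eIF2. Eif2b1 encodes the alpha subunit (chromosome 5, 124570213 to 124579131, minus strand). It was at 56.1, 61.2, 55.5 and 48.4 CPM in control and at 70.6, 74.0, 71.1 and 72.4 CPM in RGX-104. The lowest RGX-104 library lay above the highest control library, and the RGX-104 libraries lay closer together than the control libraries. Eif2b1 rose by 30.3% (log2 fold change 0.38 ± 0.08, 95% interval 0.21 to 0.56; edgeR adjusted p = 0.0125). Its annotated start lies 9 bp from that of Gtf2h3, a subunit of a general transcription factor that is read in the opposite direction. Gtf2h3 was at 24.3 ± 3.94 and 24.7 ± 3.47 CPM (log2 fold change 0.02, edgeR adjusted p = 0.963).

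Of the other eIF2B genes, none was called. The delta subunit Eif2b4 was at 241, 245, 263 and 220 CPM in control and 284, 245, 273 and 265 CPM in RGX-104. These values overlapped (log2 fold change 0.14, unadjusted p = 0.0333, edgeR adjusted p = 0.309), and Snx17, whose exons overlap those of Eif2b4 by 204 bp on the opposite strand, had a log2 fold change of 0.27 (edgeR adjusted p = 0.219). The beta subunit Eif2b2 had a log2 fold change of -0.09, the gamma subunit Eif2b3 of -0.02 and the epsilon subunit Eif2b5, which holds the exchange activity, of 0.06. Reads of Eif2b1 per read of Eif2b2 were 0.463, 0.584, 0.499 and 0.414 in control and 0.663, 0.781, 0.621 and 0.661 in RGX-104. The difference in mean log2 ratio was 0.48 relative to Eif2b2, 0.41 to Eif2b3, 0.25 to Eif2b4 and 0.33 to Eif2b5. The ratios to Eif2b4 and Eif2b5 overlapped between the groups.

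**Figure D3:**
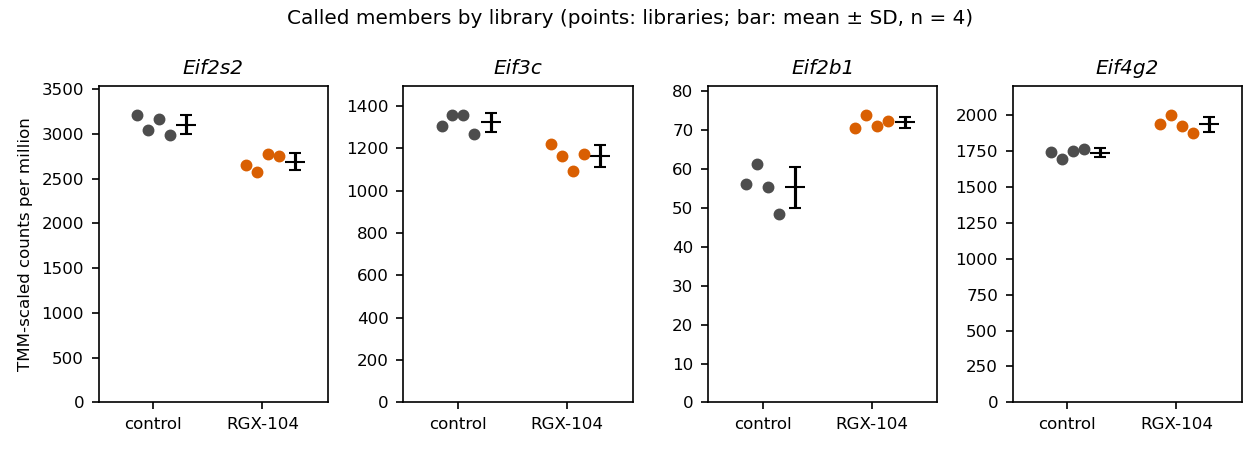
TMM-scaled CPM (vertical axes from 0) of the 4 members called, with 1 point per library and bars for mean ± SD (n = 4 per group). In each panel the 4 RGX-104 libraries do not overlap the 4 control libraries, lower for Eif2s2 and Eif3c and higher for Eif2b1 and Eif4g2.

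eIF3 is the largest initiation factor, a scaffold on the small subunit that holds eIF1, eIF5 and the mRNA. Eif3c, a core subunit that binds eIF1 and eIF5, lies on chromosome 7 (126546455 to 126566411, minus strand). It was at 1306, 1358, 1359 and 1270 CPM in control and at 1220, 1165, 1093 and 1176 CPM in RGX-104. The groups did not overlap, with RGX-104 replicate 5 closest to the control libraries. Eif3c fell by 12.1% (log2 fold change -0.19 ± 0.04, 95% interval -0.27 to -0.10; edgeR adjusted p = 0.0181). The call was lost without control replicate 2 (adjusted p = 0.0539), control replicate 3 (0.0864), RGX-104 replicate 6 (0.0545) or RGX-104 replicate 7 (0.0816), with log2 fold changes of -0.17, -0.17, -0.19 and -0.16 and the edgeR test in each.

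Of the 13 tested eIF3 genes the other 12 were not called. Eif3a, the largest subunit, was at 1897, 1846, 1870 and 1780 CPM in control and 1886, 1669, 1744 and 1734 CPM in RGX-104, with overlap (log2 fold change -0.07, edgeR adjusted p = 0.467). Eif3e, a subunit of the octamer at the core of eIF3, was at 446, 479, 479 and 474 CPM in control and 496, 522, 506 and 523 CPM in RGX-104. Its groups did not overlap, but its edgeR adjusted p was 0.201 (log2 fold change 0.12 ± 0.05). No overlap between groups was found for 7 members, 4 higher and 3 lower, against 8.20% of all genes tested (3.88% higher and 4.32% lower). Among genes with a control mean of at least 100 CPM the share without overlap was 14.1%, and 4 of 42 members had none (Eif2s2, Eif3c, Eif3e and Eif4g2). Eif3b, an RNA-binding scaffold subunit, had a log2 fold change of -0.03, and Eif3d, which can bind the cap, of -0.00110. Eif3f, Eif3g, Eif3h, Eif3k, Eif3l and Eif3m ranged from -0.02 (Eif3k) to 0.10 (Eif3f).

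Eif3j1 and Eif3j2, which encode a loosely bound subunit, are related genes, and a run of 50 bases near the 3′ end of Eif3j2 also occurs in Eif3j1, so reads counted for Eif3j2 could come from Eif3j1. Eif3j1 was at 350.5 ± 9.85 and 358 ± 26.1 CPM (log2 fold change 0.03). Eif3j2 was the kept member with the fewest reads, 28 to 68 counts per library, and was at 3.29, 4.57, 3.09 and 3.10 CPM in control and 2.60, 1.95, 2.21 and 2.74 CPM in RGX-104. The groups did not overlap, and the change was not called (log2 fold change -0.57, 95% interval -1.24 to 0.11; edgeR adjusted p = 0.462). Reads of Eif3c relative to the other 12 eIF3 genes had a negative difference in mean log2 ratio for all but Eif3j2, from -0.31 (Eif3e) to -0.11 (Eif3a). Relative to Eif3j2, with its few reads, it was 0.37. The ratios overlapped between the groups for 6 of the 12 genes.

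**Figure D4:**
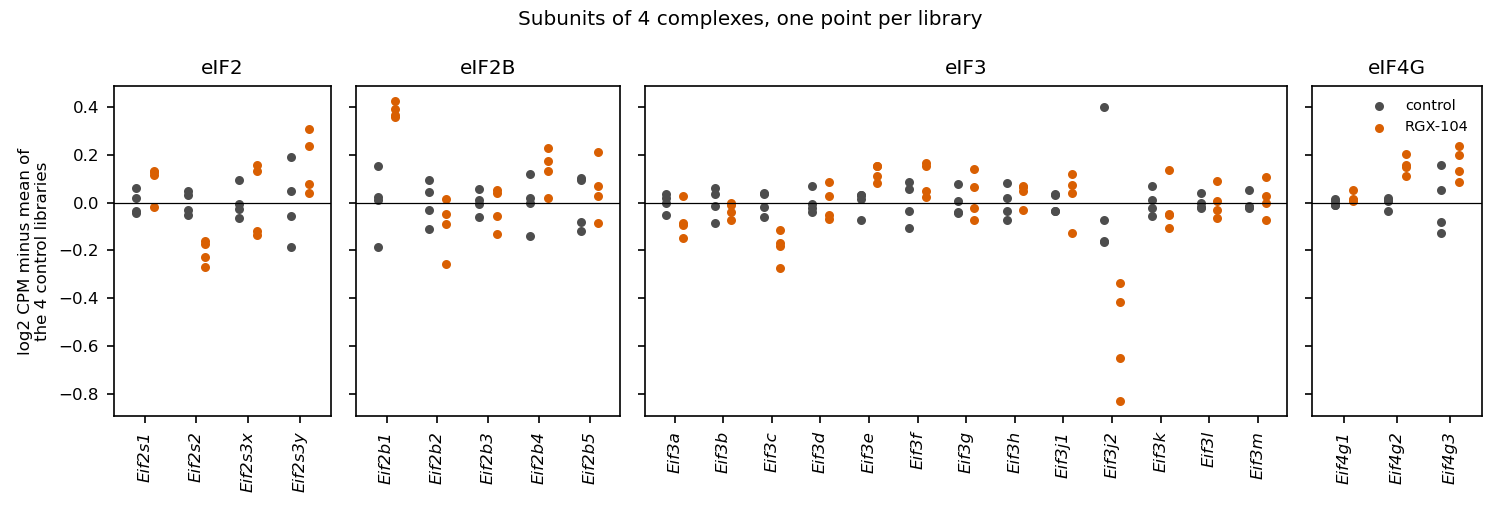
Log2 CPM of each tested subunit of eIF2, eIF2B and eIF3 and of the eIF4G genes, minus the mean of the 4 control libraries of that gene (vertical axis), with 1 point per library in grey for control and orange for RGX-104. Eif2s2 and Eif3c lie below and Eif2b1 and Eif4g2 above their control libraries, while the groups of most other subunits overlap.

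The eIF4G genes encode the scaffold that joins the cap-binding protein, the helicase and eIF3. Eif4g2, also called DAP5, lacks the part that binds eIF4E and serves mRNAs translated without it (chromosome 7, 111067750 to 111083030, minus strand). It was at 1743, 1693, 1752 and 1761 CPM in control and at 1936, 2000, 1924 and 1876 CPM in RGX-104. Every RGX-104 library lay above every control library. Eif4g2 rose by 11.3% (log2 fold change 0.15 ± 0.04, 95% interval 0.08 to 0.23; edgeR adjusted p = 0.0233). The call was lost without control replicate 2 (adjusted p = 0.0621), control replicate 3 (0.0631), RGX-104 replicate 6 (0.0919) or RGX-104 replicate 7 (0.0548), with log2 fold changes of 0.14, 0.16, 0.14 and 0.16 and the edgeR test in each. Its exons hold a small nucleolar RNA gene on the same strand (150 bp), whose reads cannot be told apart from those of Eif4g2.

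Eif4g1, the main scaffold, was at 1450, 1455, 1430 and 1431 CPM in control and 1455, 1494, 1452 and 1448 CPM in RGX-104, with overlap (log2 fold change 0.02, 95% interval -0.06 to 0.10; edgeR adjusted p = 0.869). Eif4g3 was at 204 ± 18.3 and 228 ± 10.6 CPM, with overlap (log2 fold change 0.16 ± 0.06, unadjusted p = 0.0185, edgeR adjusted p = 0.236). Reads of Eif4g2 per read of Eif4g1 were 1.20, 1.16, 1.23 and 1.23 in control and 1.33, 1.34, 1.32 and 1.30 in RGX-104 (difference in mean log2 ratio 0.13). Relative to Eif4g3 the difference was -0.01, with overlap.

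None of the other 8 tested genes of eIF4F and its cofactors was called. The cap-binding protein Eif4e was at 198 ± 8.15 and 210 ± 14.5 CPM (log2 fold change 0.08). Eif4e2, a cap-binding protein that takes part in repression of mRNAs, was at 244 ± 19.6 and 220 ± 11.7 CPM (log2 fold change -0.15, unadjusted p = 0.0280, edgeR adjusted p = 0.286). Eif4e3, another cap-binding protein, was at 10.2 ± 1.52 and 13.0 ± 0.812 CPM (log2 fold change 0.35, edgeR adjusted p = 0.373). The helicases Eif4a1 and Eif4a2 had log2 fold changes of -0.02 and -0.03, and small nucleolar RNA genes that overlap the exons of both make their counts uncertain. Snora81, in exons of Eif4a2 on the same strand, has a row of its own with 20470 counts over the 8 libraries, against 9592 for Eif4a2. The small nucleolar RNA genes in exons of Eif4a1 have no row of their own. The helicase cofactors Eif4b and Eif4h had log2 fold changes of 0.02 and 0.11, and Eif4enif1, which carries eIF4E into the nucleus, of -0.09. Eif4a3, a related helicase of the exon junction complex, was at 418, 422, 445 and 404 CPM in control and 432, 436, 474 and 459 CPM in RGX-104 (log2 fold change 0.09, edgeR adjusted p = 0.419).

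The factors of start codon selection overlapped between the groups as well. Eif1, which guards against wrong start codons, was at 469, 516, 465 and 488 CPM in control and 433, 465, 461 and 497 CPM in RGX-104 (log2 fold change -0.06). Runs of 50 bases near its 3′ end are shared with 16 annotated genes, among them pseudogenes of Eif1, so its count is uncertain. Its paralogue Eif1b was at 121, 124, 127 and 139 CPM in control and 127, 135, 145 and 152 CPM in RGX-104 (log2 fold change 0.13, edgeR adjusted p = 0.399). Eif1a and Eif1ax, which encode eIF1A, had log2 fold changes of 0.09 and 0.07. Eif1ad, placed with these genes by its symbol only, had a log2 fold change of -0.09, and its exons overlap those of Banf1 by 428 bp on the opposite strand. Eif2a and Eif2d encode alternative carriers of the initiator tRNA. Eif2a was at 108, 102, 91.2 and 91.8 CPM in control and 111, 114, 86.6 and 97.6 CPM in RGX-104 (log2 fold change 0.06, edgeR adjusted p = 0.835). Eif2d was at 46.8, 34.5, 43.1 and 43.0 CPM in control and 51.3, 41.2, 40.8 and 47.0 CPM in RGX-104 (log2 fold change 0.11, edgeR adjusted p = 0.742). Both overlapped between the groups.

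The factors of subunit joining had narrow intervals around 0. Eif5b, the GTPase that joins the subunits, was at 1282, 1162, 1235 and 1186 CPM in control and 1285, 1152, 1238 and 1253 CPM in RGX-104 (log2 fold change 0.02, 95% interval -0.07 to 0.11). Eif5, which triggers GTP hydrolysis on eIF2, was at 803 ± 44.0 and 799 ± 24.6 CPM (log2 fold change -0.00728). Eif6, which keeps the large subunit free until it is mature, was at 441, 422, 410 and 409 CPM in control and 424, 416, 459 and 408 CPM in RGX-104. Of the eIF5A genes, which help ribosomes over stalling peptides, Eif5a2 was at 4.59, 6.79, 4.67 and 5.15 CPM in control and 7.51, 6.26, 6.56 and 7.24 CPM in RGX-104 (log2 fold change 0.38, 95% interval -0.10 to 0.85; edgeR adjusted p = 0.494).

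The elongation factors did not pass the test either. Eef1a1, which brings aminoacyl tRNA to the ribosome, was at 2322, 2417, 2242 and 2315 CPM in control and 2277, 2254, 2160 and 2268 CPM in RGX-104. The groups overlapped (log2 fold change -0.05 ± 0.04, 95% interval -0.13 to 0.02; edgeR adjusted p = 0.565). Its 3′ end shares runs of 50 bases with 17 annotated genes, so reads there could come from any of them. Only 1 of the 17 has its own row in the deposited counts, at 0, so no reads were counted under them. The exchange factor subunits Eef1b2, Eef1d and Eef1g had log2 fold changes of 0.00327, 0.07 and -0.03. Eef1e1, a protein of the multi-synthetase complex with an eEF1-like name, was at 105, 99.2, 96.5 and 109 CPM in control and 111, 125, 107 and 121 CPM in RGX-104 (log2 fold change 0.18, unadjusted p = 0.0191, edgeR adjusted p = 0.239). Eef2, the gene with the E-box shown above, moves the ribosome along the mRNA and was at 2867, 2792, 2919 and 2860 CPM in control and 2688, 2761, 2855 and 2916 CPM in RGX-104 (log2 fold change -0.03, 95% interval -0.10 to 0.05).

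The 6 tested enzymes that act on elongation factors were not called. Eef1akmt1, a lysine methyltransferase of eEF1A, was at 47.4, 42.7, 45.1 and 43.8 CPM in control and 52.2, 53.3, 48.5 and 52.2 CPM in RGX-104. Its groups did not overlap, but it was not called (log2 fold change 0.20 ± 0.09, edgeR adjusted p = 0.303). Eef2kmt, which methylates eEF2, was at 58.6, 78.0, 61.1 and 61.9 CPM in control and 59.8, 59.5, 57.6 and 69.7 CPM in RGX-104 (log2 fold change -0.07). Eef2k, the kinase that inactivates eEF2, was at 18.5 ± 2.36 and 16.1 ± 1.68 CPM (log2 fold change -0.20, 95% interval -0.51 to 0.11). Eef1akmt2, Eef1akmt4 and Eef1aknmt had log2 fold changes of 0.05, 0.16 and -0.02.

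The 8 members not kept were Eif3i, Eif5a, Eef1a2, Eef1akmt3, Eif4a3l1, Eif4e1b, Eif2c5 and Eef1akmt4-ece2. Eif3i and Eif5a, genes that dividing cells are known to need, had 0 to 7 and 0 to 9 counts per library. Each symbol occurs again in the table with a number appended, and that row is at 0 in all libraries, so the low counts are not read as absence of expression. Eef1akmt3 had 0 to 9 counts and Eef1a2, the isoform of muscle and neurons, 0 to 3. The other 4 were listed at 0 in all libraries.

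Other genes of translation, from lists outside the symbol rule, were examined in the same fit. Of 44 listed genes 41 were tested and none was called by edgeR, with 6 (14.6%) at an unadjusted p under 0.05, 3 higher and 3 lower, against 13.8% of all genes tested. The DESeq2 and limma-voom fits also called 0, each with 9 at an unadjusted p under 0.05. Over all genes, DESeq2 called 192 higher and 292 lower of 10040, and limma-voom 113 and 210 of 12162. The share of all genes at an unadjusted p under 0.05 was not taken for these 2 tools, so the 9 have no background here. Over the 41 genes, 32 log2 fold changes were positive (78.0%) and 9 negative, with a median of 0.06, against 50.6% positive over all genes tested. Paip1, which strengthens the closed loop of mRNA through the poly(A)-binding protein, was at 49.3 ± 3.27 and 58.0 ± 1.56 CPM (log2 fold change 0.24, edgeR adjusted p = 0.191). Paip2, which opposes it, was at 75.7 ± 6.24 and 64.4 ± 2.06 CPM (log2 fold change -0.23, edgeR adjusted p = 0.159). The groups did not overlap for these or for Dph5, Dph6, Mtrf1, Gfm2 and Ddx3x, 7 of the 41 genes (17.1%) against 8.20% of all genes tested. Among genes with a control mean of at least 100 CPM it was 14.1%. Neither the 17.1% nor the share of positive values was matched for level. Among termination and recycling factors the smallest p belonged to Pelo (log2 fold change 0.15, edgeR adjusted p = 0.417), and among other initiation and mRNA-binding regulators to Larp4 (0.11, 0.365). Among hypusine and diphthamide enzymes it belonged to Dph5 (-0.24, 0.224), among mitochondrial factors to Mtrf1 (0.94, 0.152, from 2.55 ± 1.01 to 4.91 ± 0.791 CPM) and among selenocysteine factors to Pstk (0.40, 0.480).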

How the data were processed

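RNA of 8 libraries was made with a Lexogen 3′ FWD kit, per the labels' protocols, so reads lie near transcript ends. The table the authors deposited holds whole-number counts per gene symbol, not normalised. The submitters' processing notes name the aligner STAR (2.7.8a), DESeq2 (1.4), R (4.1.0) and the build GRCm38. How reads were assigned to genes, with or without strand or molecular identifiers, is not given in the sources used.

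The quasi-likelihood test of edgeR (4.0.16, under R 4.3.3) was run on all 8 libraries with group as the only term, after filterByExpr and TMM scaling (glmQLFit and two-sided glmQLFTest), with Benjamini-Hochberg adjustment over 12162 genes and a threshold of 0.05; the fit was tested on simulated data. All 57 members kept passed the filter. The standard error is the size of the log2 fold change divided by the square root of F. All 8 columns were matched by title (0 columns unused). Replicate numbers are not shared between groups. Positions are from GENCODE M21 (GRCm38), which listed 56 of the 57 members. Exons of 18 of them overlap another gene's by at least 100 bp, and 13 share a run of 50 bases in their last 300 bases with another gene.

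The members and lists were chosen with earlier results of these data known. Values in every library are given for called members and, per complex, for the member with the smallest p and the one with the highest mean; paralogues are described together. Eif2s1, Eif3e, Eif3j2 and Eif4g1 were added after their values were seen. Alternatives used DESeq2 1.42.0 and limma 3.58.1, other scalings and filters, and each library left out.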

Additional observations from a re-analysis of the deposited data

Results flagged for a closer look

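Eef2kmt stood at 78.0 CPM in control replicate 2, apart from the other 3 control libraries at 58.6 to 61.9 CPM by Dixon's test for a group of 4. The control group of Eef2kmt was 1 of 38 groups of 4 libraries examined, over the 19 genes given in every library by rule, and chance flags about 5% of such groups. Eef2kmt was not called (log2 fold change -0.07, edgeR adjusted p = 0.801).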

How the results depend on the processing

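Over 17 alternatives (3 other scalings, 2 other filters, robust estimation, DESeq2, limma-voom, repeated rows added to the plain symbol, and each library left out), no called gene changed direction. Eif2s2 and Eif2b1 were called in all 17, with adjusted p up to 0.0155 and 0.0498. Eif3c and Eif4g2 were called in 13 and lost the call without control replicate 2 or 3 or RGX-104 replicate 6 or 7; adjusted p ran from 0.00104 to 0.0864 and from 0.00103 to 0.0919. Leaving out 1 library gave 1 to 2 members called higher and 1 to 2 called lower. These fits have fewer samples, and over all genes they called 57 to 93 higher and 144 to 211 lower, against 108 and 216 in the main fit. The 4 fits that lost Eif3c and Eif4g2 called 57 to 65 higher and 144 to 160 lower over all genes. Without RGX-104 replicate 8, where all 4 members kept their call, these numbers were 60 and 147. In the other 9 alternatives the same 4 genes were called, with 100 to 192 higher and 204 to 292 lower over all genes. The median over the members ran from 0.01 to 0.03. No paired analysis was possible because the groups share no replicate number. Members under 100 CPM were measured less precisely, with 5 of 15 intervals inside a 1.25-fold change and a median control CV of 12.8%, and the part of depth in this was not tested.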
